A study of Mus musculus with 11 samples.

Results

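The sterol synthesis and SREBP genes are 26 genes that encode enzymes from acetyl-CoA to cholesterol, the SREBP-2 regulator with its escort and retention proteins, and a few lipid genes that SREBP controls. They were taken by gene symbol and not by a cutoff on measured values, but earlier results of these data were known when they were chosen. All 26 were found among the 17181 genes of the deposited table, and all 26 reached an FPKM of 1 in 2 or more libraries, a filter that left 13074 genes for testing.

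Cells make cholesterol from acetyl-CoA through mevalonate, farnesyl diphosphate, squalene and lanosterol, and they draw isoprenoids for protein prenylation from the same chain. SREBP-2 is held in the endoplasmic reticulum by SCAP and INSIG proteins while sterol is plentiful. When sterol falls, SCAP escorts it to the Golgi, where proteases release the part that enters the nucleus and switches on most genes of the pathway. Dividing cells need sterol for new membrane.

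RNA was measured by poly(A) sequencing in 11 tumours grown from 4T1, a line from a mouse mammary carcinoma that stands in for triple-negative breast cancer. The combination group (n = 3) received palbociclib at 30 mg/kg per day by mouth together with OPG-Fc, 3 weekly doses of 10 mg/kg into the peritoneum. The palbociclib group (n = 3) and the OPG-Fc group (n = 3) received each drug alone at the same dose, and the vehicle group (n = 2) received lactate with corn oil and DMSO. Palbociclib inhibits the kinases CDK4 and CDK6, and OPG-Fc is a soluble decoy for RANKL, which it keeps from its receptor RANK. Treatment started at a tumour volume of about 100 mm3 and lasted 12 days. Sample titles call the vehicle tumours untreated, while their treatment label is vehicle.

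All tumours share the 4T1 line and a site under the skin of both flanks, not the mammary fat pad. The design text names NSG mice, which lack lymphocytes, as hosts, while the title calls the model syngeneic. Which tumours shared an animal is not given in the labels, and p-values here cover only the spread among these tumours. The deposited column names carry the same first number for combination replicates 1 and 2, and another shared one for OPG-Fc replicates 2 and 3. What that number stands for is not given in the sources used here. The values are FPKM, fragments scaled by transcript length and library total, and they summed to between 576699 and 864670 per library. No counts accompany them, so the read depth is unknown.

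Vehicle replicate 2 went against its label as an epithelial tumour. Its median FPKM over 8 epithelial markers was 6.34, against 136 to 320 in the other 10 libraries. Its median over 9 lymphoid markers was 225, against 20.1 in OPG-Fc replicate 2 and 0.12 to 2.59 in the remaining 9. The comparisons among treated groups were therefore fitted on the 9 treated libraries, and comparisons with vehicle are given both with this library and with it left out.

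The sterol genes were expressed in all 11 tumours, and their summed FPKM lay between 514 and 774 per library. Among the enzymes that make mevalonate and activate it, Acat2, which forms acetoacetyl-CoA, had an FPKM of 19.0 at the lowest, 29.0 at the median and 35.3 at the highest. Hmgcs1, which makes HMG-CoA, had 19.6, 38.3 and 45.8. The kinases Mvk and Pmvk, which phosphorylate mevalonate in turn, had medians of 12.3 and 30.4. Mvd, which decarboxylates the product to isopentenyl diphosphate, had a median of 13.1. All 5 genes of this step stayed within an FPKM of 8.18 to 45.8.

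In the isoprenoid branch, Fdps, the farnesyl diphosphate synthase, was the most abundant of the 26 genes, with an FPKM of 30.8 at the lowest, 92.7 at the median and 115 at the highest. Idi1, which isomerises isopentenyl diphosphate, had a median of 39.2. Ggps1, which makes the longer isoprenoid used to prenylate Rab proteins, had a median of 8.74. From squalene to lanosterol, Fdft1, the squalene synthase, had a median FPKM of 39.8, and Sqle, the squalene epoxidase and a rate-limiting step, had 34.9. Lss, which closes the ring to lanosterol, had a median of 6.15, well under its neighbours in the chain.

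The 8 genes from lanosterol to cholesterol spanned a wide range of levels. Msmo1, the C4 methyl oxidase, was the highest of them with a median FPKM of 48.8, followed by Ebp, the sterol isomerase, with 37.6. Sc5d, a desaturase, had a median of 25.7 and Cyp51, which removes the C14 methyl group, had 24.3. Dhcr7, which makes the last reduction of one branch, had a median of 18.0 and Nsdhl, a C4 decarboxylase, had 15.3. Tm7sf2, a C14 reductase that shares its reaction with another protein, had a median of 5.63, and Hsd17b7, the 3-keto reductase, had 3.86.

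The SREBP-2 switch was represented by 3 genes. Srebf2, which encodes SREBP-2 itself, had FPKM values of 28.7, 27.8 and 19.9 in combination tumours, 27.98, 23.3 and 31.7 in palbociclib tumours, 31.5, 34.2 and 30.8 in OPG-Fc tumours, and 29.9 and 49.9 in vehicle tumours. Its highest value was in vehicle replicate 2 and its lowest in combination replicate 3. Scap, the escort protein, had 22.6, 25.0 and 19.2 in combination tumours, 23.2, 21.4 and 22.6 in palbociclib tumours, 18.6, 22.5 and 20.7 in OPG-Fc tumours, and 17.0 and 21.4 in vehicle tumours. Insig1, which retains the complex and is itself an SREBP target, had 44.4, 38.5 and 39.1 in combination tumours, 35.9, 46.6 and 50.3 in palbociclib tumours, 32.2, 49.2 and 46.3 in OPG-Fc tumours, and 45.6 and 27.7 in vehicle tumours. Scap and Insig1 overlapped between all treated groups.

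The last 4 genes carry sterol or modify fatty acids and lipids. Stard4, a cytosolic sterol carrier, had a median FPKM of 14.0, and Lpin1, a phosphatidate phosphatase, had 3.22. Fads1 and Fads2, the desaturases that make long polyunsaturated fatty acids, had medians of 22.8 and 31.1.

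**Figure D1:**
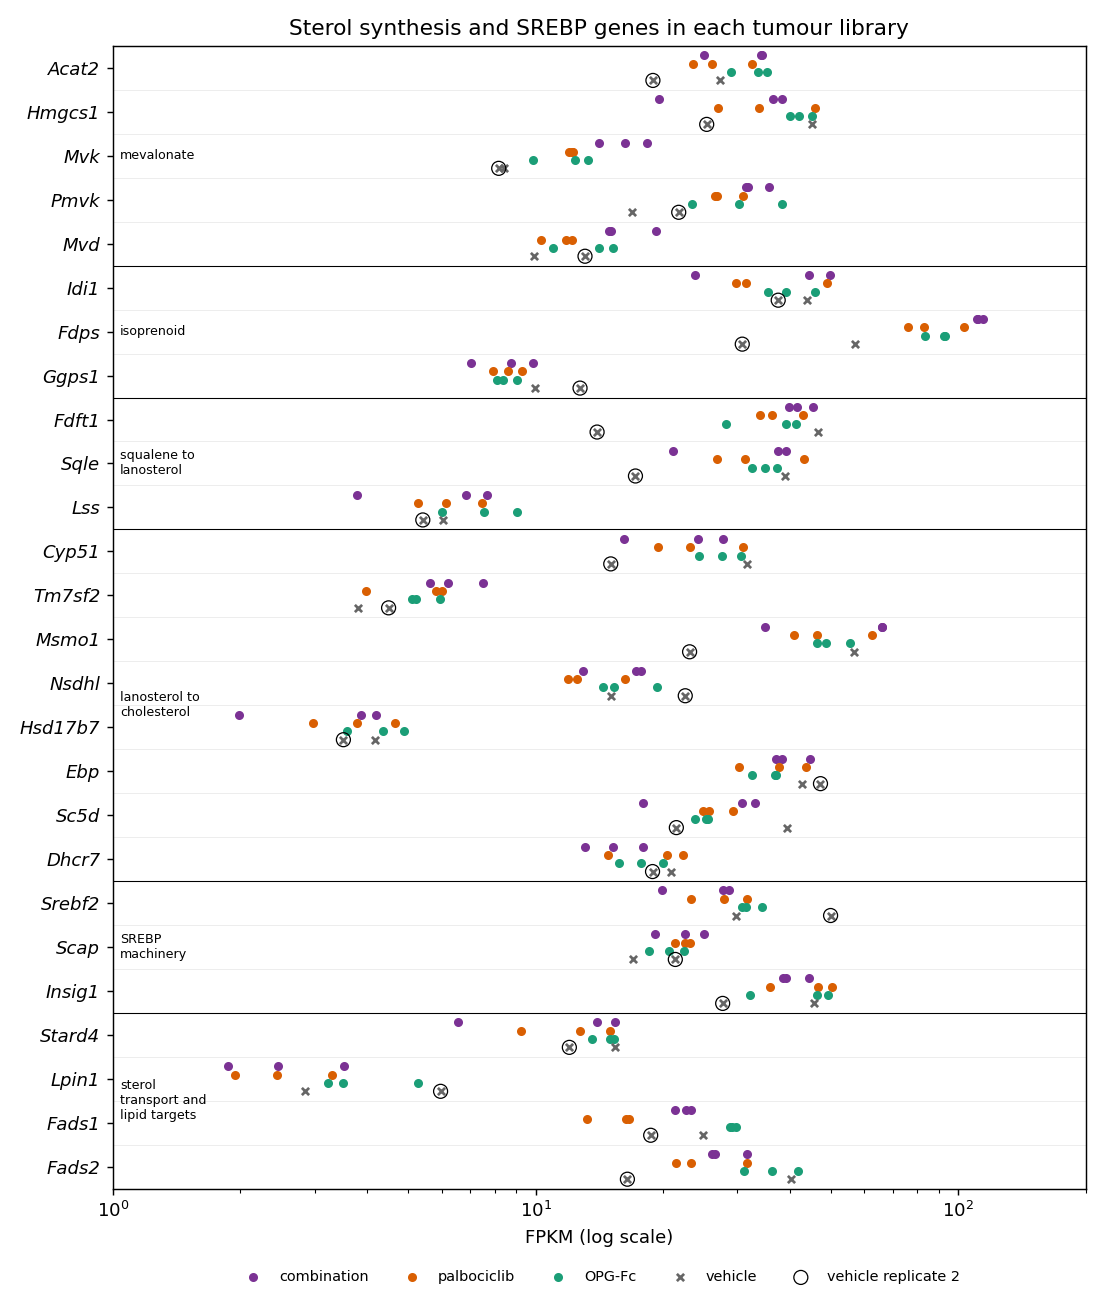
FPKM on a log axis of each of the 26 genes in each of the 11 libraries, grouped by role, with 1 mark per library, colours for the 4 groups and a ring around vehicle replicate 2. Fdps lies highest with up to 115 FPKM, Hsd17b7 and Lpin1 lie lowest, and the treated groups overlap for most genes while Fads1 separates palbociclib from OPG-Fc.

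Promoter windows from RefSeq on GRCm38.p6, an older build than the GRCm39 named in the submitters' processing notes, were found for 21 of the 26 genes. Each runs from 250 bases before to 50 bases after the gene start. The 4 windows shown belong to 2 genes that were low in 1 combination tumour, Hmgcs1 and Msmo1, and 2 that were not, Mvk and Tm7sf2. Capitals mark the SRE-like letters TCACNCCAC and the CCAAT box, on either strand.
Hmgcs1, chr13:119690101-119690400, plus strand: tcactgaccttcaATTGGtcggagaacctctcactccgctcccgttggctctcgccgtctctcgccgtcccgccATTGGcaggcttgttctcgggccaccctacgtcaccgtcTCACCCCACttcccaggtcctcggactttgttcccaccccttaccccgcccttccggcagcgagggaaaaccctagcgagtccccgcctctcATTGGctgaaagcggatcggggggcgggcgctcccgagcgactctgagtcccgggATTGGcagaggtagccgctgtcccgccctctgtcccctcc
Msmo1, chr8:64733529-64733828, minus strand: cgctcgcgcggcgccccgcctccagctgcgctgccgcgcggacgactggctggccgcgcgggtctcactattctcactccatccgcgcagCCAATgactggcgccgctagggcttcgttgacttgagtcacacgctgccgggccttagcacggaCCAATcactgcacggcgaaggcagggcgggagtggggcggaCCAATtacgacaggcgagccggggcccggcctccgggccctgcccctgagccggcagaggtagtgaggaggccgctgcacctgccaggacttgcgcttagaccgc
Mvk, chr5:114444019-114444318, plus strand: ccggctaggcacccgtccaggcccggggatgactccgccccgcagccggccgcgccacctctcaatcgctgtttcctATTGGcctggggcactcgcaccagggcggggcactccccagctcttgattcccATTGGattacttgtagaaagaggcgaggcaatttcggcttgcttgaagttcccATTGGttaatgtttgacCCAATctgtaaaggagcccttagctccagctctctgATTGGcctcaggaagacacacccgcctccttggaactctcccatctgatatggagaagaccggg
Tm7sf2, chr19:6067801-6068100, minus strand: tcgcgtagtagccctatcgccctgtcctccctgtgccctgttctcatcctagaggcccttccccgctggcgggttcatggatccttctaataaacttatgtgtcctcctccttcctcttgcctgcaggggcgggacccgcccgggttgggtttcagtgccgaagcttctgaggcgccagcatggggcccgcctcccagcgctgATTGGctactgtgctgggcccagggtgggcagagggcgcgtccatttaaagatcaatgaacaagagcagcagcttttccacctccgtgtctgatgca
Hmgcs1 has 1 SRE-like match and 4 CCAAT boxes, Msmo1 has 3 CCAAT boxes, Mvk has 5 and Tm7sf2 has 1.

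CCAAT, the letters bound by NF-Y, which often works beside SREBP, were found in 16 of the 21 windows (76.2%), against 37.9% of 27025 promoter windows of the same length. GGGCGG, the GC box bound by Sp1, was found in 18 of 21 (85.7%), against 35.9% of all windows. CACGTG, an E-box, was found in 4 of 21 (19.1%), against 7.24% of all windows. The SRE-like letters were found in Hmgcs1 alone, 1 of 21 (4.76%), against 1.22% of all windows. The 27025 windows include genes outside the 13074 tested here, while all 26 genes passed the filter, so these shares do not compare expressed genes alone. Both strands were searched, and matches of different motifs can share bases at their ends. A match is a description of the sequence and not a mapped site.

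Palbociclib and OPG-Fc tumours differed in 1 sterol-related gene, the fatty acid desaturase Fads1, while the sterol enzymes themselves gave no call. Fads1 had FPKM values of 13.3, 16.4 and 16.7 in palbociclib tumours, and 29.8, 29.2 and 28.8 in OPG-Fc tumours. All 3 palbociclib tumours lay below all 3 OPG-Fc tumours, and the OPG-Fc values were nearly level. The means were 15.4 ± 1.89 in palbociclib tumours and 29.2 ± 0.47 in OPG-Fc tumours (SD, n = 3 each). Fads1 was lower in palbociclib tumours by 0.89 on the log2(FPKM + 1) scale (SE 0.11, 95% interval -1.14 to -0.64). Its adjusted p was 0.001572 by limma with Benjamini-Hochberg adjustment over 13074 genes. Against both vehicle tumours, its log2 fold change was 0.42 for OPG-Fc (95% interval 0.067 to 0.775) and -0.47 for palbociclib, neither of them called. Without vehicle replicate 2 these were 0.23 and -0.66. Values on this scale understate the change of genes with low FPKM.

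Fads1 alone of the 26 genes was called lower, and 0 of 26 were called higher. Over all tested genes 10.3% were called, 9.18% lower and 1.15% higher, so a single call among 26 is no more than that background. At an unadjusted p under 0.05 there were 2 of the 26 genes and 3151 of all genes. The second was Fads2, with FPKM values of 21.5, 23.3 and 31.6 in palbociclib tumours, and 31.1, 41.7 and 36.3 in OPG-Fc tumours. Palbociclib replicate 3 reached into the OPG-Fc range, and the log2 fold change was -0.51 (SE 0.17, adjusted p = 0.0895). Without palbociclib replicate 3, Fads2 was called too.

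For the sterol enzymes the estimated differences were small in this comparison. The median log2 fold change of the 26 genes was -0.12, against -0.04 for all genes. The 95% interval lay within 2-fold in either direction for 25 of the 26 genes, all but Fads1. By step, the median was -0.21 for the 5 mevalonate genes, -0.05 for the 3 isoprenoid genes, -0.07 for the 3 genes from squalene to lanosterol and -0.04 for the 8 genes from lanosterol to cholesterol. It was 0.07 for the 3 genes of the SREBP switch and -0.49 for the 4 transport and lipid genes. Every gene of that last group had a value below 0. Without any overlap between groups, 1 of 26 genes was lower and 0 were higher, against 21.8% lower and 11.3% higher over all genes.

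Markers of several host cell types were lower in the same comparison. Of 9 adipocyte markers 8 were called lower in palbociclib than in OPG-Fc tumours, and the list summed to an FPKM of 68.9 to 110 in palbociclib tumours and 831 to 2712 in OPG-Fc tumours. Of 7 fibroblast markers 6 were called lower, of 6 endothelial markers 6, and of 6 macrophage markers 5. Of 8 epithelial markers 1 was called higher and 0 lower, with a median log2 fold change of 0.46. None of the 9 adipocyte markers was at 0 in any library. Vehicle replicate 1 had a Fads1 FPKM of 24.9, and vehicle replicate 2 had 18.7. The median adipocyte marker FPKM of vehicle replicate 1 was 3.45, close to the 1.33 to 2.72 of palbociclib tumours. Its medians were above those of palbociclib tumours for endothelial markers (10.2 against 5.89 to 6.51) and macrophage markers (51.8 against 33.3 to 39.6). Its fibroblast marker median was 51.5, within their 41.5 to 62.6. In a whole tumour, fewer cells of a type and less RNA per cell cannot be told apart, and the part of host cells in the Fads1 difference was not tested. Skin keratinocyte markers were high in palbociclib replicates 1 and 3, with medians of 113 and 73.4 against at most 9.44 in any other library. Without those tumours the palbociclib group is replicate 2 alone, the log2 fold change of Fads1 was -0.80 and its adjusted p 0.0808.

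**Figure D2:**
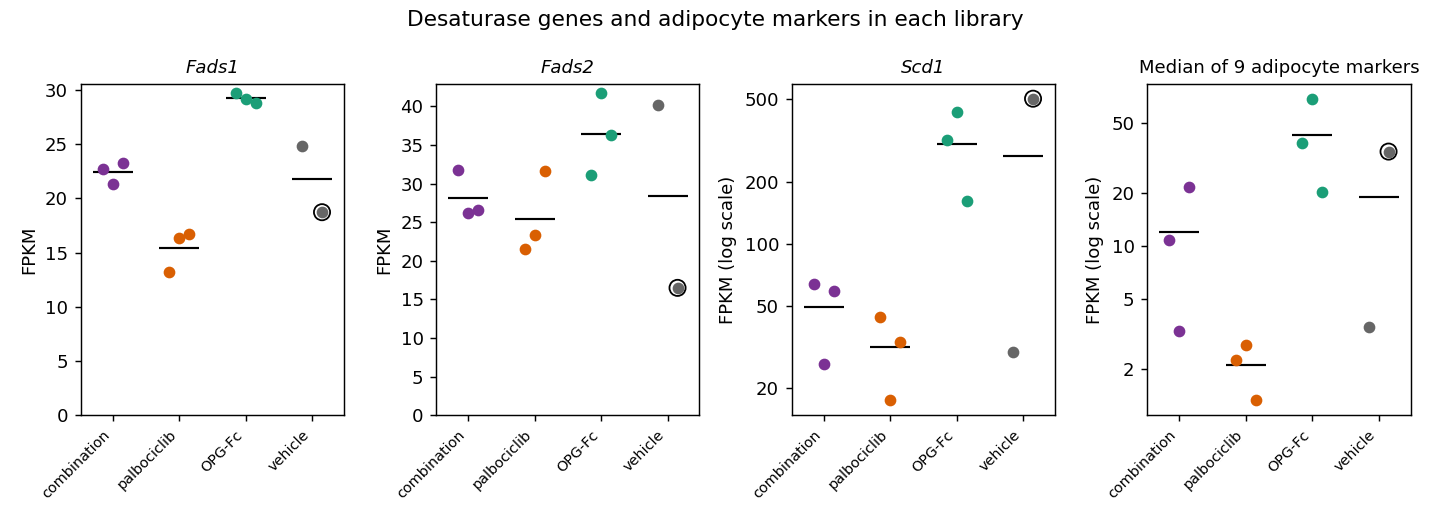
FPKM of Fads1, Fads2, Scd1 and the median of 9 adipocyte markers in each library by group, with a bar at the group mean, a ring around vehicle replicate 2 and a log axis in the last 2 panels. Fads1 lies at 13.3 to 16.7 in palbociclib tumours and at 28.8 to 29.8 in OPG-Fc tumours, with the combination tumours between them.

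Between combination and OPG-Fc tumours limma called 0 of the 26 genes at an adjusted p under 0.05, against 4.67% of all genes, 3.7% lower and 0.964% higher. At an unadjusted p under 0.05 there were 3 of the 26, and 4087 of all genes. Fads1 had FPKM values of 22.8, 21.4 and 23.3 in combination tumours, below the 28.8 to 29.8 of OPG-Fc tumours. Its log2 fold change was -0.37 (SE 0.11, adjusted p = 0.0738).

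Mvk and Fdps pointed the other way. Mvk, the mevalonate kinase, had FPKM values of 14.1, 16.3 and 18.4 in combination tumours, and 9.87, 13.3 and 12.4 in OPG-Fc tumours. Every combination tumour was above every OPG-Fc tumour, and the log2 fold change was 0.43 (SE 0.14, adjusted p = 0.082). Fdps had 111, 115 and 112 in combination tumours, and 83.6, 93.0 and 92.7 in OPG-Fc tumours. Its groups did not overlap either, with a log2 fold change of 0.32 (SE 0.12, adjusted p = 0.119). Neither gene passed the threshold.

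Without overlap, 3 of the 26 genes were lower in combination than in OPG-Fc tumours, namely Hmgcs1, Srebf2 and Fads1, against 23.5% of all genes. Without overlap, 2 were higher, Mvk and Fdps, against 15.3%. The longest coding transcripts of Mvk and Fdps have 1660 and 1382 bases, and those of Hmgcs1, Srebf2 and Fads1 have 3464, 5077 and 3460. A fit with a correction for transcript length was also run for this comparison, and its values for these genes are not given here. The median log2 fold change was -0.06 for the 26 genes and -0.07 for all genes. The 95% interval lay within 2-fold for 25 of 26 genes. Hmgcs1 was the exception, with an interval from -1.04 to 0.10, and its FPKM values were 38.3, 36.5 and 19.6 in combination tumours, against 42.1, 39.9 and 45.2 in OPG-Fc tumours. Combination replicate 3 had the lowest Hmgcs1 value of all 11 tumours. In the same comparison 3 of 9 adipocyte, 5 of 7 fibroblast, 5 of 6 endothelial and 1 of 6 macrophage markers were called lower in combination tumours, and their part in these values was not tested.

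Between combination and palbociclib tumours limma called 0 of the 26 genes and 0 of all 13074 genes (0%). At an unadjusted p under 0.05 there were 4 of the 26, all higher in combination tumours, and 2312 of all genes. Fads1 had 22.8, 21.4 and 23.3 FPKM in combination tumours, and 13.3, 16.4 and 16.7 FPKM in palbociclib tumours. The groups did not overlap, and the log2 fold change was 0.52 (SE 0.11, adjusted p = 0.0891). Mvd, the decarboxylase, had 14.9, 19.3 and 15.04 FPKM in combination tumours, and 10.3, 11.8 and 12.2 FPKM in palbociclib tumours. It had 10.97, 15.3 and 14.2 FPKM in OPG-Fc tumours, and 9.89 and 13.1 FPKM in vehicle tumours. Its log2 fold change for the combination against palbociclib was 0.48 (SE 0.15, adjusted p = 0.18), again without overlap.

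Fdps had an FPKM of 111 to 115 in combination tumours and of 76.2, 82.9 and 103 in palbociclib tumours, a log2 fold change of 0.37 (SE 0.12, adjusted p = 0.201). In all, 5 of the 26 genes were higher in combination tumours without overlap, namely Mvk, Pmvk, Mvd, Fdps and Fads1, against 13.7% of all genes. None was lower without overlap, against 7.04% of all genes. None of those 5 genes passed the test. The longest coding transcripts of Pmvk, Fdps, Mvk and Mvd have 1194, 1382, 1660 and 1756 bases, against 3460 for Fads1 and 5581 for Lpin1. The fit with a correction for transcript length was run here too, and its values for these genes are not given. The median log2 fold change of the 26 genes was 0.04, against 0.02 for all genes, and the interval lay within 2-fold for all 26. The 3 comparisons among treated groups share their libraries, so their values are not independent of each other.

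**Figure D3:**
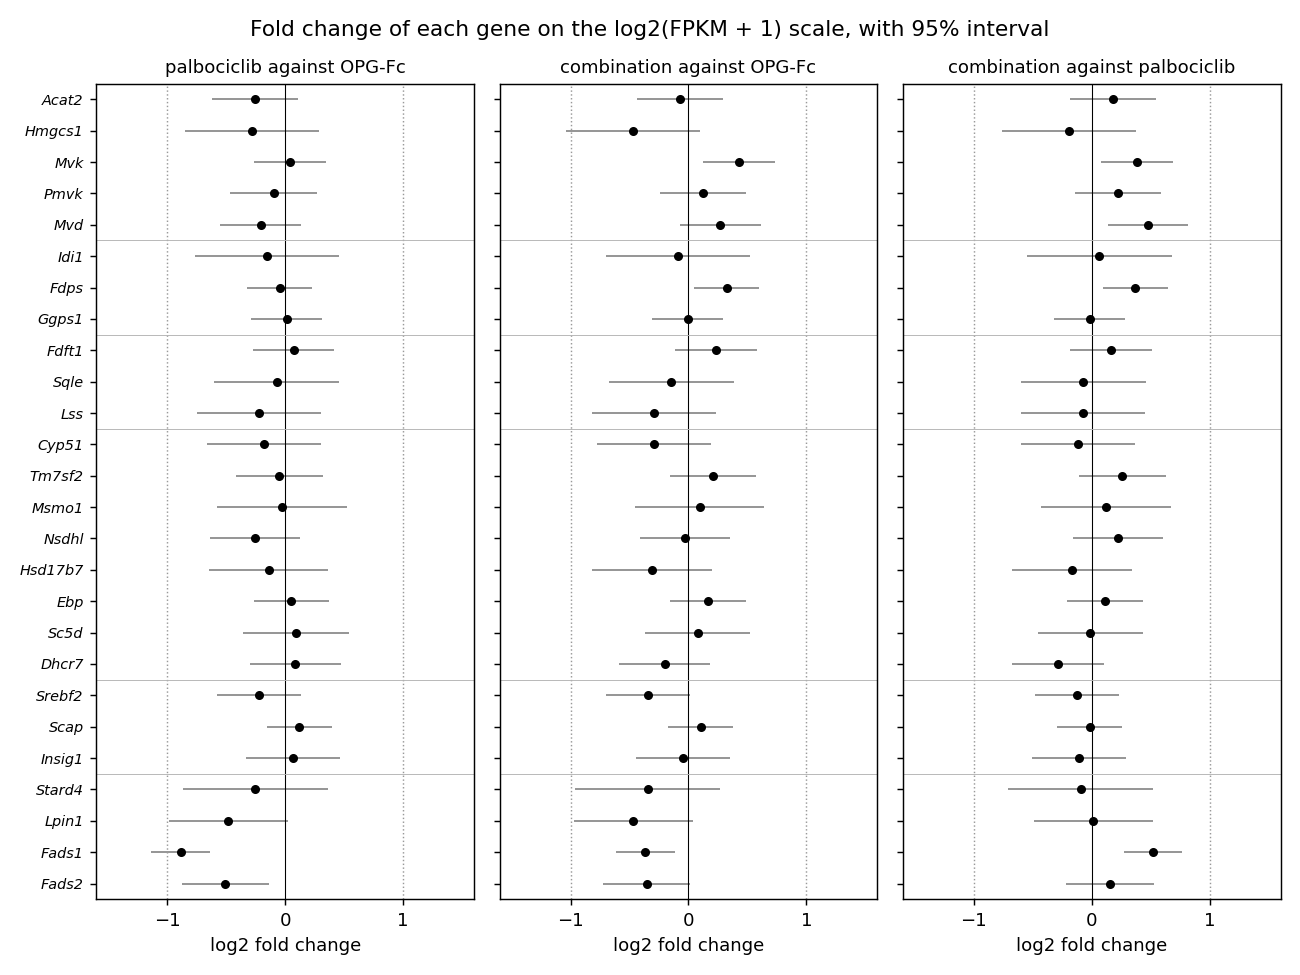
Log2 fold change with 95% interval of each of the 26 genes in the 3 comparisons among treated groups, with dotted lines at a change of 2-fold either way. Fads1 lies at -0.89 for palbociclib against OPG-Fc, -0.37 for the combination against OPG-Fc and 0.52 for the combination against palbociclib, and most other intervals cover 0.

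Mvk, Pmvk and Fdps were higher in every treated tumour than in both vehicle tumours, 3 of 26 genes against 5.44% of all genes. Mvk had FPKM values of 9.87 to 18.4 in the 9 treated tumours, with 12.0, 12.2 and 12.3 in palbociclib tumours, and 8.43 and 8.18 in vehicle tumours. Pmvk had 23.4 to 38.3 in treated tumours, and 16.9 and 21.8 in vehicle tumours. Fdps had 76.2 to 115 in treated tumours, and 57.0 and 30.8 in vehicle tumours. Vehicle replicate 2, the library with few epithelial transcripts, was the lowest for Mvk and Fdps, and vehicle replicate 1 was the lowest for Pmvk. Ggps1 was lower in every treated tumour, 1 of 26 genes against 4.55% of all genes, with at most 9.86 in treated tumours, and 9.96 and 12.7 in vehicle tumours.

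None of these differences passed in any comparison with vehicle, where limma called 0 of 13074 genes (0%) with all 11 libraries. For the combination against vehicle, Fdps had a log2 fold change of 1.40 (SE 0.23, adjusted p = 0.0557), Mvk 0.88 (SE 0.16, adjusted p = 0.0557) and Pmvk 0.75 (SE 0.20, adjusted p = 0.0754). With a filter at an FPKM of at least 5, Fdps and Mvk were called, at adjusted p-values of 0.04896 and 0.04903, as were 0.87% of all genes. Without vehicle replicate 2 the log2 fold changes were 0.97 for Fdps, 0.86 for Mvk and 0.92 for Pmvk, with adjusted p-values of 0.0647, 0.0843 and 0.0923. With a correction for transcript length, added after seeing the data, Fdps had 1.06 and Mvk 0.63 with all libraries, and 0.60 and 0.59 without vehicle replicate 2 (adjusted p = 0.197 and 0.131). In the fit without vehicle replicate 2 and without that correction, 8 of all genes (0.0612%) were called, and 0 of the 26. At an unadjusted p under 0.05 there were 6 of the 26 genes with all libraries, against 29.6% of all genes, and 5 without that library, against 23.1%.

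For palbociclib against vehicle, Fdps had a log2 fold change of 1.03 (SE 0.23), Mvk 0.50 (SE 0.16) and Fads1 -0.47 (SE 0.16), each with an adjusted p of 0.158. Without vehicle replicate 2 these were 0.60, 0.48 and -0.66, with 0 of all genes called (0%). At an unadjusted p under 0.05 there were 4 of the 26 genes, against 28.1% of all genes, and 5 without that library, against 9.68%. For OPG-Fc against vehicle, Fdps had a log2 fold change of 1.08 (SE 0.23), Pmvk 0.62 (SE 0.20) and Mvk 0.46 (SE 0.16), each with an adjusted p of 0.471. Without vehicle replicate 2 these were 0.64, 0.80 and 0.44, with 1 of all genes called (0.00765%). At an unadjusted p under 0.05 there were 5 of the 26 genes, against 10.2% of all genes, and 4 without that library, against 12.5%.

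The median of the 26 genes moved with vehicle replicate 2. It was 0.04 for the combination, 0.02 for palbociclib and 0.27 for OPG-Fc against both vehicle tumours, and -0.14, -0.14 and -0.02 against vehicle replicate 1 alone. With vehicle replicate 2 as the sole vehicle tumour, 9 of the 26 genes were called for the combination, 9 for palbociclib and 8 for OPG-Fc, against 50.8%, 52% and 40.3% of all genes. That library has high lymphoid and low epithelial markers, and tissue and treatment cannot be told apart in that comparison.

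The interaction asks whether the effect of palbociclib differs with OPG-Fc present. None of the 26 genes passed, with 0 of all genes called (0%) with all libraries and 0 (0%) without vehicle replicate 2. Fdps alone had an unadjusted p under 0.05, with a value of -0.71 (SE 0.31, adjusted p = 0.647), beside 5.42% of all genes at that threshold. Without vehicle replicate 2 it was -0.27 and no gene of the 26 had one, beside 4.84% of all genes. The 95% interval of the interaction lay within 2-fold for 10 of the 26 genes, and for 16 without vehicle replicate 2.

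Tumours of the same group differed from each other in these genes, many of them together. In combination replicate 3, 18 of the 26 genes were below both other combination tumours and 4 were above both, against 48.4% and 36.9% of all tested genes. After a correction for transcript length these counts were 20 and 1, and the shares of all genes were not computed with that correction. In palbociclib replicate 2, 19 were below both others and 0 above, against 42.9% and 31.7%. In palbociclib replicate 3, 0 were below and 24 above, against 27.4% and 32.5%. OPG-Fc replicate 1 had 16 below and 4 above, against 42.4% and 34.3%, and OPG-Fc replicate 2 had 4 below and 16 above, against 33% and 42.2%. Combination replicate 1 had 5 below and 14 above, against 18% and 38.6%, and combination replicate 2 had 3 and 8, against 33.1% and 24.1%. OPG-Fc replicate 3 had 6 below and 6 above, against 23.6% and 22.9%. These are counts within single tumours, described without a test.

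Combination replicate 3 was the lowest of the 9 treated tumours for 13 of the 26 genes. The share of all tested genes that were lowest in that tumour was not computed, so this count has no background. A different count, of genes below both other combination tumours in that tumour, was 18 of the 26 and 48.4% of all tested genes. Stard4 had an FPKM of 6.56 there, against 15.4 and 14.0 in combination replicates 1 and 2. Idi1 had 23.8, against 49.7 and 44.5. Msmo1 had 34.9, against 66.0 and 66.1. The ratio of replicate 3 to the mean of the other two was 0.447 for Stard4, 0.494 for Hsd17b7, 0.505 for Idi1, 0.523 for Lss, 0.525 for Hmgcs1 and 0.528 for Msmo1.

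Not all steps were low in that tumour. Fdps in combination replicate 3 was 0.988 times the mean of the other two, Fads1 1.06 times, Ebp 1.19 times, Mvk 1.21 times and Tm7sf2 1.27 times. After a correction for transcript length, the log2 differences of Ebp, Mvk and Tm7sf2 were each 0.01, and that of Fdps was -0.34. Those of Hmgcs1, Idi1 and Msmo1 were -0.82, -0.93 and -1.06 after the correction. The median difference without the correction was -0.38 over the 26 genes, against -0.07 for all genes. After the correction it was -0.36 over the 26 genes, and that of all genes was not computed.

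Other measures of that tumour differed as well. Combination replicate 3 had the highest total of FPKM, 864670, and a median epithelial marker FPKM of 318, against 167 and 202 in combination replicates 1 and 2. The sums of those markers lay closer, 3411 against 2972 and 3246. Single markers of that list differed in direction, with Cldn4 at 515 against 245 and 287, and Cdh1 at 37.7 against 71.45 and 75.88. The median adipocyte marker FPKM of combination replicate 3 was 21.8, against 10.9 and 3.28. Combination replicates 1 and 2 are the tumours whose column names share a number. Palbociclib replicate 3, where 24 of the 26 genes were highest of their group, had skin markers in common with palbociclib replicate 1. In palbociclib replicate 1, 7 genes were below both others and 2 above, against 28.8% and 35.2% of all tested genes. The part of these features in the spread was not tested.

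**Figure D4:**
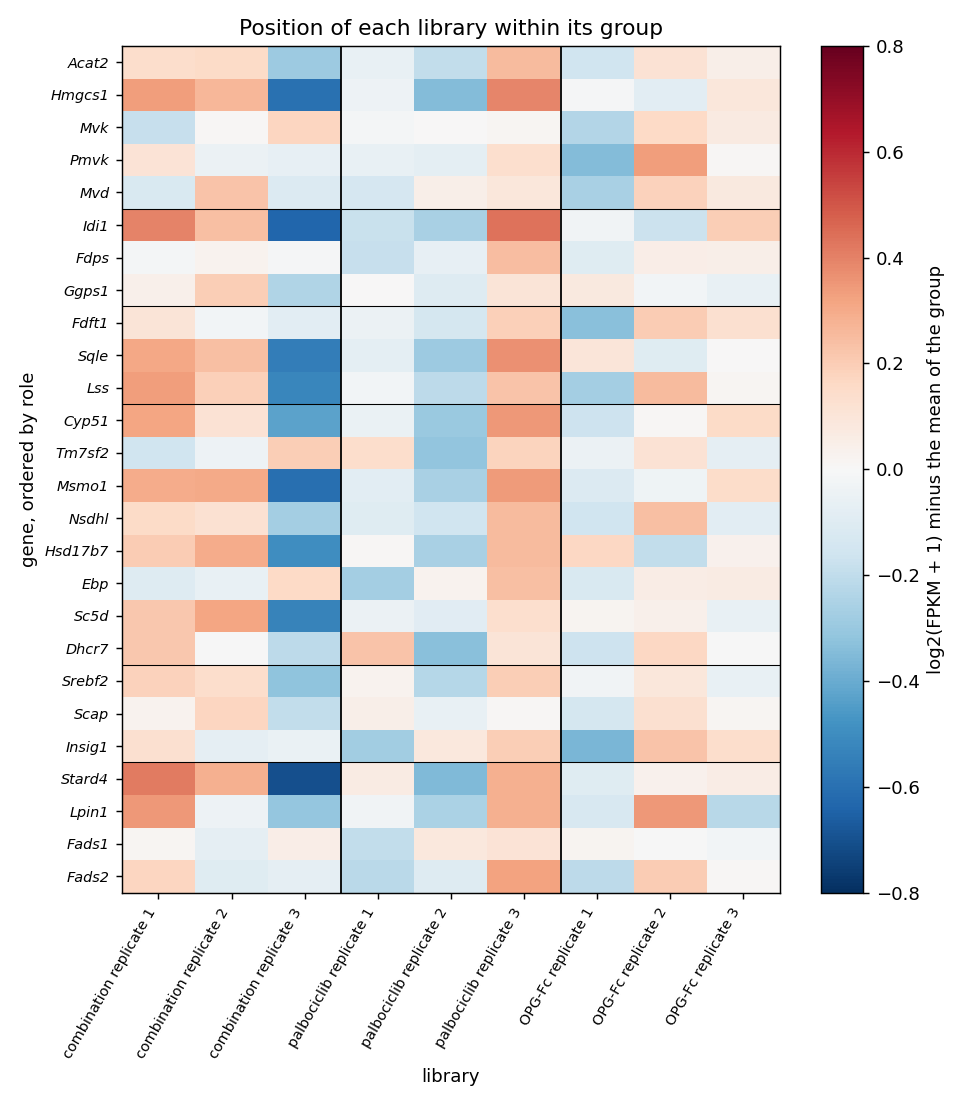
Difference of log2(FPKM + 1) from the mean of its own group for each of the 26 genes in the 9 treated libraries, with blue for lower and red for higher. Combination replicate 3 and palbociclib replicate 2 are blue and palbociclib replicate 3 red down most of the column, while Mvk, Tm7sf2 and Ebp are red in combination replicate 3.

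Genes next to the pathway were described from 4 lists chosen by function. Of 10 other sterol and SREBP-2 genes, 0 were called by limma in any comparison among treated groups. Estimates lay below 0 for 7 of the 10 for the combination against OPG-Fc and against palbociclib, and for 6 for palbociclib against OPG-Fc. Their medians were -0.23, -0.12 and -0.10, against -0.07, 0.02 and -0.04 for all genes. At an unadjusted p under 0.05 by limma, 2 were lower and 1 higher for the combination against OPG-Fc, beside 31.3% of all genes. Tmem97, a sterol-responsive membrane protein, had FPKM values of 51.0, 46.6 and 48.8 in combination tumours, 29.5, 33.9 and 39.6 in palbociclib tumours, and 35.3, 34.7 and 36.5 in OPG-Fc tumours. It lay higher in every combination tumour than in the others, with a log2 fold change of 0.45 against OPG-Fc (adjusted p = 0.0566) and 0.50 against palbociclib (adjusted p = 0.101).

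Some SREBP-1 and fatty acid genes were called lower in tumours given palbociclib than in OPG-Fc tumours. Of 11 such genes, 2 were called lower in palbociclib against OPG-Fc tumours, where 9.18% of all genes were. In combination against OPG-Fc tumours 3 were called lower, where 3.7% of all genes were. Estimates lay below 0 for 10 of the 11 genes for palbociclib and for all 11 for the combination. Their medians were -0.47 and -0.71, against -0.04 and -0.07 for all genes. Scd1, which desaturates stearate, had 63.4, 26.1 and 58.8 FPKM in combination tumours, 44.1, 17.4 and 33.3 FPKM in palbociclib tumours, 319, 434 and 161 FPKM in OPG-Fc tumours, and 29.98 and 504 FPKM in vehicle tumours. Every OPG-Fc tumour was above all tumours given palbociclib and above vehicle replicate 1, which lay within the palbociclib range. Against OPG-Fc, Scd1 was lower by 3.21 on the log2 scale in palbociclib tumours (adjusted p = 0.002681) and by 2.59 in combination tumours (adjusted p = 0.02174). Fasn, the fatty acid synthase, was lower by 1.31 in palbociclib tumours (adjusted p = 0.02585) and by 1.58 in combination tumours (adjusted p = 0.03001). Acaca, the acetyl-CoA carboxylase, was lower by 1.18 in combination tumours (adjusted p = 0.03656). For palbociclib against vehicle, Scd1 had a log2 fold change of -2.04 (adjusted p = 0.196) with both vehicle tumours and -0.02 (adjusted p = 0.992) without vehicle replicate 2. Fasn had an FPKM of 21.4 to 36.6 in palbociclib tumours, and 35.5 and 59.1 in vehicle tumours. For OPG-Fc against both vehicle tumours, estimates lay above 0 for 10 of the 11 genes. Their median was 0.40, against 0.04 for all genes. Without vehicle replicate 2, 9 of the 11 lay above 0, with a median of 0.42, against 0.05 for all genes. For OPG-Fc against vehicle, Fasn had a log2 fold change of 0.73 (adjusted p = 0.472), and 1.09 without vehicle replicate 2. Fasn lost its call for palbociclib without any palbociclib replicate or without OPG-Fc replicate 1 or 2. For the combination, Scd1 lost its call without combination replicate 2 or OPG-Fc replicate 1 or 2. Fasn and Acaca lost theirs without any combination replicate, without OPG-Fc replicate 1 or 2 and without palbociclib replicate 3, and Acaca also without palbociclib replicate 1. Fat cells are known to express Scd1 and Fasn, and adipocyte markers were called lower in the same comparisons, 8 of 9 for palbociclib and 3 of 9 for the combination. Their part in these calls was not tested.

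Of 13 genes of LXR, cholesterol export and storage, 6 were called lower in palbociclib against OPG-Fc tumours. In combination against OPG-Fc tumours 1 was called lower, beside the same 9.18% and 3.7% of all genes. Estimates lay below 0 for 11 of the 13 genes for palbociclib and for 10 for the combination. Their medians were -0.66 and -0.37, against -0.04 and -0.07 for all genes. For palbociclib, Pltp, a phospholipid transfer protein, fell by 2.92 on the log2 scale, Cyp27a1, a sterol 27-hydroxylase, by 1.59, Abca1, a cholesterol exporter, by 1.43 and Apoe, an apolipoprotein abundant in macrophages, by 1.34. Their adjusted p-values lay between 0.001077 and 0.008017. Vehicle replicate 1 lay near the palbociclib tumours rather than the OPG-Fc tumours for Pltp, with an FPKM of 18.5 to 29.8 in palbociclib tumours, 160 to 181 in OPG-Fc tumours and 24.8 in vehicle replicate 1. Apoe had 617 to 798 in palbociclib tumours, 1689 to 1812 in OPG-Fc tumours and 585 in vehicle replicate 1. Vehicle replicate 2 had 196 for Pltp and 1208 for Apoe. For OPG-Fc against vehicle, Apoe had a log2 fold change of 1.07 (adjusted p = 0.471), and 1.59 (adjusted p = 0.116) without vehicle replicate 2. In that fit 6 of the 13 genes were higher and 0 lower at an unadjusted p under 0.05, which 12.5% of all genes reached, and 0 were called. Abca1 fell by 1.06 in combination tumours (adjusted p = 0.02912), a call that was lost without combination replicate 2, palbociclib replicate 3 or any OPG-Fc replicate. For this list too, 5 of 6 macrophage markers were called lower in palbociclib tumours and 1 of 6 in combination tumours. In combination against palbociclib tumours 0 of the 13 were called, and Pltp had a log2 fold change of 1.87 (adjusted p = 0.0549). Of 13 genes that use isoprenoids, for prenylation, dolichol or ubiquinone, 0 were called in any of the 3 comparisons. Rabggtb, a subunit of the Rab prenyl transferase, came nearest with 0.47 for the combination against OPG-Fc (adjusted p = 0.06).

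Some values carry a limit of annotation. Exons of Cyp51, Fdft1 and Ggps1 overlap exons of an antisense protein-coding gene, Akap9, Ctsb and Arid4b in that order, and the library protocol in the labels does not mention strand. Exons of Tm7sf2 and Fdps overlap exons of a protein-coding gene on the same strand, Vps51 and Gm43738 in that order. Reads of those pairs cannot be told apart where they overlap. In all, 9 of the 26 genes have an exon that overlaps an exon of another gene. Acat2 has a close copy, Acat3, with an FPKM of at most 2.36.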

How the data were processed

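The authors deposited 1 table of FPKM values for 17181 gene symbols in 11 libraries. The tools HISAT, Bowtie2 and RSEM and the builds GRCm39 and mm39 are named per the submitters' processing notes, without versions or roles. Every column was matched to its sample by the description in the labels. FPKM steps were searched for whole reads and gave none, so no count test was run and the depth is unknown.

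Values were taken as log2(FPKM + 1). The filter kept 13074 genes that reached an FPKM of 1 in 2 or more of 11 libraries. A linear model with a mean for each group was fitted with limma (version 3.58.1, R version 4.3.3) and a variance prior that follows the mean level, on the 9 treated libraries for comparisons among treated groups and on all 11 for comparisons with vehicle and the interaction. A gene was called where its p, adjusted by Benjamini and Hochberg's method over all tested genes, was under 0.05. With vehicle replicate 2 left out, the lone vehicle tumour is taken to vary as tumours of the other groups do. The fit was tried on simulated data with independent noise, for palbociclib against OPG-Fc and the combination against palbociclib only. Comparisons with vehicle, and tumours or genes that vary together, were not simulated. Plots were made in Python 3.11.15 with matplotlib 3.10.9.

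The members and lists were chosen with earlier results of these data known. The text gives every library's FPKM for members that passed, for the 3 smallest p-values of a comparison between treated groups where none passed, and for Srebf2, Scap and Insig1. Fads2, Hmgcs1, Pmvk, Ggps1 and the genes singled out in combination replicate 3 were chosen after their values were seen. Of each other list it names up to 4 passing genes, or the smallest p-values. The values of 1 gene of those lists are not reported here. Promoters and transcript lengths came from RefSeq and GENCODE tables of GRCm38, matched by symbol (the first listed promoter where a gene had several), with lengths for 26 of 26 members and 96.86% of tested genes. The replicate numbers were checked as pairs: same-numbered libraries had correlations of their deviations between -0.406 and 0.264 over 9 pairs, so they were not used as pairs.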

Additional observations from a re-analysis of the deposited data

How the results depend on the processing

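The alternatives changed a single choice each: pseudocount (0.1), filter (none, or an FPKM of at least 5), quantile and median-of-ratios scaling, the variance prior, the replicate number as a block, averaging of libraries that share a number, the libraries in the fit, and each library left out. A correction for transcript length, with and without vehicle replicate 2, was added after seeing the data. Fads1 in palbociclib against OPG-Fc tumours kept its call in every setting but 1. Without palbociclib replicates 1 and 3 the members called were 0, the median log2 fold change of the members was -0.36 for palbociclib against OPG-Fc and 0.26 for the combination against palbociclib, and palbociclib was 1 tumour. With each library left out in turn, the members called ranged from 1 to 2 for palbociclib against OPG-Fc, 0 to 9 for the combination against vehicle, 0 to 9 for palbociclib against vehicle, 0 to 8 for OPG-Fc against vehicle and 0 to 3 for the interaction, with every highest value of the last 4 reached without vehicle replicate 1. The median ranged from -0.14 to 0.27 for the combination against vehicle and from -0.024 to 0.34 for OPG-Fc against vehicle, where it was 0.043 with the length correction without vehicle replicate 2. The filter at an FPKM of at least 5 gave 2 members for the combination against vehicle. The cause of these shifts was not tested.

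Counts over all genes moved more. For palbociclib against OPG-Fc the 1350 calls became 853 with the filter at 5, 119 with all 11 libraries in the fit, 0 without palbociclib replicates 1 and 3, and 882, 772 and 840 without palbociclib replicate 1, palbociclib replicate 3 and OPG-Fc replicate 1. For the combination against OPG-Fc the 610 calls became 373 with that filter, 280 with quantile normalization, 91 with averaging, 161 without palbociclib replicates 1 and 3, 160 with only the groups compared, 13 with all 11 libraries, 378 with the length correction, and between 21 and 801 with 1 library left out. For the combination against palbociclib the 0 calls became 52 with the filter at 5, 1 with averaging, and up to 382 without palbociclib replicate 2. Against vehicle, the 0 calls became 13, 90 and 6 for the combination with pseudocount 0.1, the filter at 5 and quantile normalization, 1 and 3 for palbociclib with pseudocount 0.1 and quantile normalization, 5, 69 and 2 for palbociclib, OPG-Fc and the combination with the length correction without vehicle replicate 2, 1 for palbociclib with the length correction in all libraries, and 156 for palbociclib and 61 for the interaction without palbociclib replicate 2. Without vehicle replicate 1 the interaction had 4800.

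The replicate block left the members called at 1 for palbociclib against OPG-Fc and 0 elsewhere, and gave 1022 and 201 calls over all genes for palbociclib and the combination against OPG-Fc. Of 9 pairs of same-numbered libraries 3 had a correlation above 0.1, and 0 of 9 libraries correlated best with their own number. With 3 tumours a group among treated groups, 2 vehicle tumours and no read counts, the SE of the 26 log2 fold changes was 0.111 to 0.275 among treated groups and 0.158 to 0.393 against vehicle.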
